A study of Mus musculus with 2 samples.

Results

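The heat shock protein and DNAJ families were followed in nuclei of mouse hindbrain neurons from 2 libraries. Members were all genes whose symbol begins with Hspa, Hspb, Hspd, Hspe, Hsph, Hsp90 or Dnaj and that had at least 20 UMIs over both libraries (a UMI, a unique molecular identifier, counts 1 captured RNA molecule). Of 74 such symbols, 62 passed, among 23912 genes in the tables and 17985 genes with at least 20 UMIs. Just inside the threshold lay Dnajc5b with 22 UMIs, Hspb6 with 30 and Hspa2 with 39, and just outside lay Dnajb3 with 18, Hspa1l with 16 and Hspa1a with 14.

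Both libraries came from TRAP2 mice aged 8 to 12 weeks that carried AAV-retro-H2B-GFP, a retrograde virus with a nuclear GFP, injected into the lumbar spinal cord. TRAP2 is a line in which active neurons can be tagged through a Cre driven from the Fos locus. One library followed a hot water bath and the other a condition labelled SNI with brush, so the libraries differ in treatment and in the pool of animals. Hindbrains were pooled by treatment before the nuclei were isolated and sorted. With 1 library per treatment there is no replicate, no test was possible, and treatment and library cannot be told apart. All intervals are 95% intervals that cover counting error only.

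Chaperones bind unfolded stretches of other proteins. Hsp70 proteins (the Hspa genes) cycle on and off their clients with ATP, DNAJ proteins (J-domain proteins) deliver clients and start the ATP hydrolysis, and Hsph1 belongs to the Hsp110 proteins that exchange the nucleotide. Hsp90 acts later on a narrower set of clients, Hspd1 and Hspe1 (Hsp60 and Hsp10) form the folding chamber of mitochondria, and small heat shock proteins (Hspb) hold aggregating proteins without ATP. In neurons the Hsp70 protein Hspa8, with the J-domain proteins auxilin (Dnajc6) and cysteine string protein (Dnajc5), also uncoats clathrin vesicles and keeps synaptic vesicle proteins folded.

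The tables held 425 nuclei and 16344606 UMIs for hot water bath and 288 nuclei and 11298755 UMIs for SNI with brush, and no barcode was shared. After calls of 3 and 2 doublets and removal of a cluster of 17 non-neuronal nuclei, all of it in SNI with brush, 422 and 269 neuronal nuclei remained, with a median of 36886 and 33172 UMIs. Neuronal nuclei of SNI with brush held more mitochondrial, ribosomal protein and, for most lists, non-neuronal marker UMIs. Mitochondrial UMIs were 0.149% against 0.494% of the total and ribosomal protein UMIs 0.283% against 0.616%. Summed marker levels were 79.3 against 189 CPM (UMIs of a gene in every 1000000) for 7 oligodendrocyte genes, 43.2 against 116 for 6 astrocyte genes, 76.9 against 78.8 for 6 microglia genes and 38.4 against 306 for 5 choroid plexus genes. The 6 liver genes summed to 1.18 CPM, with Alb, Apob and Serpina1a at 0, against 24.3 CPM. The neuron marker list stood at 16135 and 17714 CPM.

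Heat shock genes are classically driven through heat shock elements, repeats of the unit GAA in alternating orientation, which the heat shock factors bind. RefSeq promoter windows of GRCm38.p6 (300 bases, of which 250 precede the start) were found for 49 of 62 members. They were searched for 2 adjoining units, written GAANNTTC or TTCNNGAA, each of which reads the same on both strands. A gene can have more than 1 window and was counted if any of them matched. Of the 49 members, 12 (24.5%) held such a pair, against 17.0% of all 27025 genes with a window. Counted by window, the shares were 21.2% of 66 and 15.1% of 32851. A row of 3 units, a longer match that contains 2 overlapping pairs, occurred in 4 members (8.16%), against 0.662% of all genes. The 4 were Hspd1, Hspe1, Dnajb6 and Hsph1. For a member with several windows, the one with the longest match is used below, and distances are from the start of that window's transcript. The stretches below show 30 bases around the longest match of the 11 members other than Hspb1, each read 5′ to 3′ on the strand of its gene, with the matching bases in capitals.
Hspe1: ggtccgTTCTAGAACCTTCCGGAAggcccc
Hspd1: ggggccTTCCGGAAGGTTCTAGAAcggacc
Hsph1: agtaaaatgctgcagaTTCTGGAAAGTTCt
Dnajb6: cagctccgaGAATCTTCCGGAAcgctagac
Dnaja1: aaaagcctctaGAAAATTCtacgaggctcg
Dnaja4: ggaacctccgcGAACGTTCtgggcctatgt
Hspb6: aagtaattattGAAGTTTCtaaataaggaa
Dnajb4: ttcgttcgctgTTCTAGAAagtacagagac
Dnajc10: aacaattttatTTCTAGAAaactttaatta
Dnajc27: cacccatcggtGAAGATTCcaggaaaaaaa
Hspb8: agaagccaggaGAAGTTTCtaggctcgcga

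Hspd1 and Hspe1 lie head to head, and their stretch is the same piece of DNA, chr1:55088053-55088082, read on opposite strands. Its run of matching bases begins 144 bases before the Hspd1 start used here and 89 bases before the Hspe1 start. The Hsph1 match, at chr5:149636287-149636316 on the minus strand, lies 36 bases after the start. The Dnajb6 match, at chr5:29735843-29735872 on the plus strand, begins 46 bases before the start. Those of Dnaja1 (chr4:40722333-40722362), Dnaja4 (chr9:54699458-54699487) and Hspb6 (chr7:30553170-30553199), all on the plus strand, begin 124, 90 and 120 bases before it. The Dnajb4 match (chr3:152193841-152193870, minus strand) begins 14 bases before it. Those of Dnajc10 (chr2:80315273-80315302) and Dnajc27 (chr12:4082350-4082379), both on the plus strand, begin 182 and 213 bases before it, and that of Hspb8 (chr5:116422844-116422873, minus strand) lies 2 bases after it. Hspb1, a small heat shock protein, held 2 separate pairs, which begin 117 and 97 bases before its start. Its 250 bases upstream, chr5:135887669-135887918 on the plus strand, are shown whole because the 2 pairs lie apart.
Hspb1: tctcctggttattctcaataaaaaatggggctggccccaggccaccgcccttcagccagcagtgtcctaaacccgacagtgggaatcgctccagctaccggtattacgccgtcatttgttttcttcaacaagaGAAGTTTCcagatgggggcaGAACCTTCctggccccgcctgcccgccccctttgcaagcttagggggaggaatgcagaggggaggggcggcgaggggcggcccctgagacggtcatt

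A match is a run of letters and not a measured binding site. Dnajb4, with a pair close to its start, stood at 68.6 and 72.1 CPM in hot water bath and SNI with brush. Dnaja1, also with 1 pair, stood at 57.4 and 99.6 CPM. Of the 7 members with a window that were at least 1.5-fold higher in SNI with brush, 5 held a pair, against 7 of the other 42. With size factors, which scale by the median gene, 3 members were at least 1.5-fold higher and 2 of them held a pair (Hspe1 and Hspb1), since Hsph1, Dnaja1 and Hspb6 fell to 0.37, 0.57 and 0.57. Among all genes with a window, a pair was in 14.1% of those at least 1.5-fold higher and in 14.6% of the others. These sets were formed from the ratios, carry no test and say nothing about a cause. Dnajc10, Hspb8 and Dnajc27, which also held a pair, had log2 ratios of 0.03, -0.08 and 0.41. Hspa8, Hsp90aa1 and Hsp90ab1, which led the difference between the libraries, are named here without a window.

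Summed over all 62 members, chaperone RNA took 3015 CPM (2988 to 3042) of neuronal UMIs in hot water bath and 3777 CPM (3741 to 3814) in SNI with brush. In all, 11 members were at least 1.5-fold higher in SNI with brush, 17.7% of 62, and for 10 of the 11 the counting interval of the log2 ratio lay above 0. How many of all genes had such an interval was not counted. Among all 17480 genes with at least 20 UMIs in these sums, 30.4% were at least 1.5-fold higher, so the members' share was not above the background. In the other direction, 1 member was at least 1.5-fold lower, against 8.43% of all genes. The median log2 ratio of the members was 0.30 and that of all genes 0.23. Of the 62 members, 49 had a ratio above 0, and 37 did after scaling by the median gene, which moves every ratio down by about 0.23. Of the 762 CPM by which the sums differed, Hspa8, Hsp90aa1 and Hsp90ab1 together gave 442 CPM, and the other 59 members went from 2622 to 2942 CPM, a log2 ratio of 0.17. With size factors, the members at least 1.5-fold higher numbered 7.

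**Figure D1:**
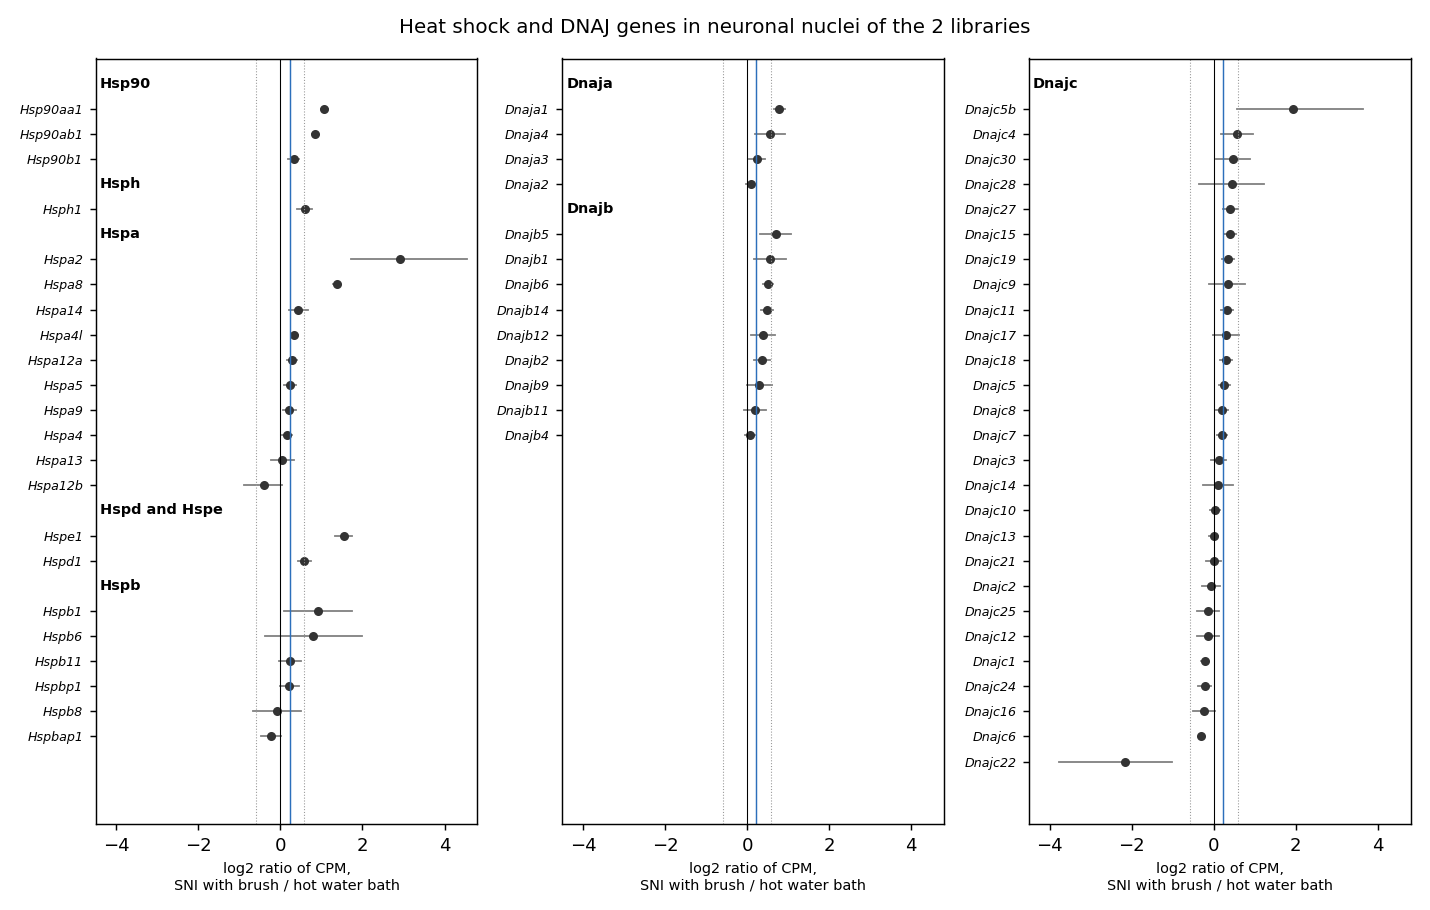
Log2 ratio of CPM in SNI with brush over hot water bath (horizontal axis) for each of the 62 members, grouped by subfamily, with 95% counting intervals as grey lines. The blue line marks the median of all genes (0.23) and the dotted lines a 1.5-fold difference. Hspa8 (1.38), Hspe1 (1.54), Hsp90aa1 (1.07) and Hsp90ab1 (0.84) stand to the right of the blue line with narrow intervals, whereas most Dnajc members lie between the dotted lines.

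Among the 10 Hsp70 genes, Hspa8, the constitutive cytosolic Hsp70, had 108 CPM (103 to 113) after hot water bath and 280 CPM (270 to 290) after SNI with brush. This is a log2 ratio of 1.38 (1.29 to 1.46), and the intervals of the 2 libraries do not overlap. Hspa2, known mainly from germ cells, rested on 6 and 32 UMIs and gave a log2 ratio of 2.91 (1.73 to 4.56). The other 8 lay within 1.5-fold. Hspa4l, an Hsp110-type protein, had 149 and 189 CPM with a log2 ratio of 0.34 (0.26 to 0.43), and its relative Hspa4 had 84.0 and 94.0 CPM. Hspa14, linked to the ribosome, had 21.5 and 29.2 CPM. Hspa5, the Hsp70 of the endoplasmic reticulum (ER), was at 51.1 and 59.9 CPM, and Hspa9, the mitochondrial Hsp70, at 54.1 and 63.0 CPM. Both ratios, 0.23 and 0.22, equal that of the median gene within 0.01. Hspa13 stood at 16.1 and 16.7 CPM and the divergent Hspa12a at 87.6 and 107 CPM. Hspa12b was the only Hsp70 gene with a ratio below 0 when scaled by total UMIs, at 7.74 and 5.78 CPM (-0.41, interval -0.88 to 0.03). After scaling by the median gene, the Hspa median moved from 0.26 to 0.03 and 6 of 10 ratios were above 0.

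The heat-inducible Hsp70 genes contributed almost no RNA. Hspa1a had 6 UMIs in hot water bath and 8 in SNI with brush, and Hspa1b had 0 and 4. These near-identical neighbours share reads, so the split between them is uncertain. Hspa1l, beside them on the chromosome, had 6 and 10 UMIs. All 3 are below the 20 UMI limit, and no ratio is given.

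The 2 cytosolic Hsp90 genes differed and the ER one less so. Hsp90aa1, the inducible form, stood at 144 CPM (138 to 150) and 303 CPM (293 to 313), a log2 ratio of 1.07 (0.99 to 1.15). Hsp90ab1, the constitutive form, stood at 141 CPM (136 to 147) and 253 CPM (243 to 262), a log2 ratio of 0.84 (0.76 to 0.92). Hsp90b1, the ER form, stood at 65.4 and 81.6 CPM, with 0.32 (0.19 to 0.45). Hsph1, the Hsp110 nucleotide exchange factor of cytosolic Hsp70, had 31.3 and 47.0 CPM. Its log2 ratio was 0.59 (0.41 to 0.77), just past the 1.5-fold limit, and it fell below the limit with size factors (0.37) and when 4 strata of mitochondrial share, described further on, were averaged (0.30).

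The mitochondrial folding chamber differed unequally between its parts. Hspe1, the lid of the chamber, stood at 19.3 CPM (17.2 to 21.6) and 56.1 CPM (51.7 to 60.7), a log2 ratio of 1.54 (1.34 to 1.74). Hspd1, the chamber itself, stood at 37.0 and 55.4 CPM, with 0.58 (0.42 to 0.75). The interval of Hspe1 lies wholly above that of Hspd1, although the genes face each other across the bidirectional stretch shown above. In the GENCODE annotation the spans of the 2 genes overlap on opposite strands, and the sources used here do not say how reads there were assigned. The starts used for the promoter windows come from RefSeq, a different annotation.

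The 6 members with an Hspb symbol include 3 small heat shock proteins. Hspb1 rested on 24 and 30 UMIs, 1.49 and 2.80 CPM, with a log2 ratio of 0.91 (0.09 to 1.75). Hspb6 rested on 13 and 15 UMIs, with 0.79 (-0.37 to 1.99), an interval that holds 0. Its ratio was 0.57 with size factors, 0.15 with averaged strata and -0.02 when the log2 ratios of the strata were averaged. Hspb8 had 4.15 and 3.92 CPM. The other 3 are not small heat shock proteins. Hspbp1, an Hsp70 nucleotide exchange factor, had 22.3 and 26.0 CPM, Hspb11, a cilium transport protein also known as Ift25, had 15.6 and 18.4 CPM, and Hspbap1, which binds Hspb1, had 22.6 and 19.3 CPM.

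J-domain proteins of class A, the closest relatives of bacterial DnaJ, held 1 member of 4 that was at least 1.5-fold higher, where 30.4% of all genes were. That member, Dnaja1, fell below the limit with size factors (0.57) and with averaged strata (0.24). Dnaja1, a main partner of cytosolic Hspa8, stood at 57.4 CPM (53.8 to 61.2) and 99.6 CPM (93.7 to 106), a log2 ratio of 0.79 (0.67 to 0.92). Its close relative Dnaja2 stood at 96.2 and 102 CPM, with 0.09 (-0.02 to 0.20), so the 2 intervals are far apart. The mitochondrial Dnaja3 had 33.1 and 39.1 CPM and Dnaja4 8.42 and 12.4 CPM, with 0.24 and 0.56.

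All 9 class B members had a ratio above 0 and 1 passed 1.5-fold, where 30.4% of all genes did. After scaling by the median gene, 7 of 9 were above 0 and none passed. Dnajb5 was the highest, at 7.06 and 11.5 CPM (0.70, 0.32 to 1.08), with 0.48 under size factors and 0.96 with averaged strata, where 2 class B members passed. Dnajb1, the classic heat-inducible Hsp40, stood at 7.06 and 10.4 CPM (0.57, 0.18 to 0.96), short of the limit. Dnajb6, a strong suppressor of polyglutamine aggregation, stood at 70.8 and 101 CPM (0.52, 0.40 to 0.64). Dnajb14, in the ER membrane, stood at 50.8 and 71.2 CPM (0.49, 0.34 to 0.63). The ER stress genes Dnajb9 and Dnajb11 gave 0.30 (0.00 to 0.60) and 0.20 (-0.07 to 0.47).

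Class C, the most varied group, held 27 members. Of these, 1 (3.70%) was at least 1.5-fold higher and 1 lower, where 30.4% and 8.43% of all genes were. The class median of 0.21 turned to -0.02 after scaling by the median gene, with 17 and then 12 of 27 above 0. Dnajc6 (auxilin) had the most UMIs of all members and was lower in SNI with brush, at 412 CPM (402 to 422) and 333 CPM (323 to 344), a log2 ratio of -0.30 (-0.36 to -0.25). Dnajc5, the synaptic vesicle chaperone, went the other way, at 70.4 and 84.5 CPM (0.26, 0.14 to 0.39). Dnajc13, on endosomes, was level at 99.6 and 99.5 CPM (-0.11 to 0.11). Dnajc1, in the ER membrane, stood at 173 and 148 CPM (-0.22, -0.31 to -0.13), and Dnajc16 at 20.1 and 17.2 CPM (-0.23, -0.50 to 0.04). Dnajc4, Dnajc30 and Dnajc27 had the highest ratios among class C members with at least 100 UMIs, 0.57, 0.48 and 0.41. The ER co-chaperone Dnajc3 had 40.9 and 44.3 CPM. The 2 members past 1.5-fold had few UMIs and were singled out after their values were seen. Dnajc5b had 6 and 16 UMIs (1.94, 0.58 to 3.65). Dnajc22 had 43 and 6 UMIs, 2.66 and 0.56 CPM (-2.15, -3.77 to -1.01).

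Different genes were also set side by side in CPM per kb of gene span, introns included. A UMI counts a captured molecule, and whether UMIs rise with gene span was not tested. The treatment of intronic reads is not stated. The scale divides by length and so favours short genes, and its order is no ranking of RNA levels. On that scale Hsp90ab1 stood first in both libraries, at 25.7 and 46.0. Hsp90aa1 and Hspa8 were level in hot water bath, at 11.9 and 11.8, and Hspa8 was the higher of the pair in SNI with brush, at 30.8. Dnajc6, first by UMIs but 146 kb long, had 2.82 and 2.28. Hspe1 had 6.08 and 17.7, Hspd1 3.56 and 5.32, and Hspa5 9.15 and 10.7.

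By compartment, 9 of 25 members of the cytosol and nucleus (36.0%) were at least 1.5-fold higher, near the 30.4% of all genes. The 9 became 5 with size factors and 4 with averaged strata. The median of the 25 was 0.44, where that of all genes was 0.23. Of the 25 ratios 22 were above 0, and 17 were with size factors. Of 8 mitochondrial members 1 passed (Hspe1), with a median of 0.37 and all 8 above 0, or 7 with size factors. Of 11 ER members none passed in either direction, with a median of 0.20 and ratios from -0.23 to 0.49. The ER median became -0.03 after scaling by the median gene, the cytosolic one 0.22 and the mitochondrial one 0.15. Among 4 members of synaptic vesicles, clathrin coats or endosomes, 1 passed (Dnajc5b) and the median was 0.13. The compartments were assigned from textbook knowledge, and 14 members were left without one.

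Genes outside the families that work with them were read from fixed lists. Of 26 Hsp70 and Hsp90 co-chaperones, 12 passed 1.5-fold upward and none downward, and the median log2 ratio was 0.35. The highest were Grpel1 (1.16, 0.84 to 1.49), the nucleotide exchange factor of mitochondrial Hsp70, Cdc37 (1.05, 0.80 to 1.31), which brings kinases to Hsp90, and Bag6 (0.89, 0.61 to 1.18). The lowest were Gak (-0.29, -0.42 to -0.15), the broadly expressed relative of auxilin, and Sil1 (-0.17, -0.31 to -0.03), which serves Hspa5 in the ER. Gak and Dnajc6, both uncoating partners of Hspa8, thus had ratios below 0 while Hspa8 had 1.38. Of 14 genes of the chaperonin TRiC and its helper prefoldin, 10 passed 1.5-fold in the same direction, and the ratios ran from Cct4 at 0.09 over a median of 0.90 to Pfdn6 at 1.47. The heat shock factors were 0 of 4 in either direction, with Hsf1 at 28.9 and 27.0 CPM (-0.10, -0.32 to 0.11) and Hsf2 at 36.6 and 42.5 CPM (0.22, 0.04 to 0.39). Of 18 genes of ER folding and the unfolded protein response 4 were higher, with a median of 0.18, among them Ddit3 (1.17) and Atf4 (0.87), whereas the stress sensors Ern1 and Eif2ak3 were at -0.16 and -0.12. Of 7 mitochondrial proteases 1 was higher, Lonp1 at 0.60, with a median of 0.17. The share among all genes was 30.4% higher and 8.43% lower throughout. These lists were read by total UMIs only. Size factors, which move every ratio down by about 0.23, would take genes just past the limit, such as Lonp1, below it. The share of all genes falls with size factors as well. The lists were not read on that scale or against genes of their own length.

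Each nucleus was then assigned a transmitter class from its own UMIs. Hot water bath had 251 glutamatergic, 60 inhibitory and 26 serotonergic nuclei, and SNI with brush had 122, 103 and 3, with 33 and 23 mixed and 52 and 18 holding too few transmitter UMIs. The classes are cut from a share of UMIs, and 12 and 11 nuclei lay near the glutamatergic limit and 8 and 4 near the inhibitory one. Different clusters filled a class in the 2 libraries: the 3 clusters with most glutamatergic nuclei were clusters 3, 0 and 5 in hot water bath (43, 27 and 27 of 251 nuclei) and clusters 11, 1 and 7 in SNI with brush (35, 29 and 20 of 122). Clusters 11 and 1 were themselves mixed, with 37.1% and 38.7% of their transmitter UMIs glutamatergic over both libraries. In SNI with brush they also held 32 and 26 of the 103 inhibitory nuclei. Inhibitory nuclei came mainly from clusters 2, 9 and 17 in hot water bath and from clusters 11, 1 and 9 in SNI with brush. Cluster 9, which gave 14 of 60 and 26 of 103 inhibitory nuclei, was led by mitochondrial genes such as mt-Cytb, mt-Atp6 and mt-Nd1.

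Within glutamatergic nuclei, 8 of 59 members with at least 20 UMIs were at least 1.5-fold higher in SNI with brush and 1 was lower, against 26.8% and 8.68% of 15753 genes. Hspe1 was the highest, at 18.4 and 52.1 CPM (log2 interval 1.23 to 1.77). Hspa8 stood at 101 and 263 CPM (1.38, with a lower bound of 1.27) and Hsp90aa1 at 142 and 277 CPM (0.96, 0.86 to 1.07). At the other end, Dnajc16 stood at 21.9 and 15.1 CPM (-0.53, -0.92 to -0.17), Dnajc6 at 437 and 335 CPM (-0.38, -0.46 to -0.30) and Dnajc1 at 175 and 150 CPM (-0.22, -0.34 to -0.10).

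Within inhibitory nuclei, 15 of 56 members were at least 1.5-fold higher and 2 lower, against 30.9% and 8.41% of 13440 genes. For 10 of the 15 the interval lay above 0, a count that was not made over all genes. Hspe1 stood at 25.6 and 69.0 CPM (1.42, 1.00 to 1.88), Hspa14 at 14.9 and 33.1 CPM (1.13, 0.58 to 1.76) and Hspa8 at 166 and 318 CPM (0.94, 0.76 to 1.11). The counting intervals of the Hspa8 ratio in the 2 classes do not overlap, with 101 CPM in glutamatergic and 166 CPM in inhibitory nuclei of hot water bath. Dnajc16 stood at 11.6 and 20.1 CPM in inhibitory nuclei (0.77, 0.12 to 1.51), the opposite side of 0 from glutamatergic nuclei. Hspa12b was lower in SNI with brush, at 14.9 and 4.97 CPM (-1.57, -2.51 to -0.71), and so was Hspbap1, at 28.9 and 13.8 CPM (-1.06, -1.63 to -0.51).

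Within 1 library, the number of members that differed between the classes depended on how nuclei were classed. By the nucleus' own transmitter UMIs, 3 members were at least 1.5-fold higher in inhibitory nuclei in each library, and by the class of the cluster 13 of 58 were in hot water bath, where 18.8% of all genes were, and 14 of 56 in SNI with brush, where 18.4% of all genes were. By own UMIs in hot water bath, 3 of 58 were at least 1.5-fold higher in inhibitory than in glutamatergic nuclei and 2 lower, against 11.1% and 9.98% of 14762 genes. The 3 were Hspa12b (5.45 CPM in glutamatergic, 14.9 in inhibitory nuclei, log2 1.46, 0.77 to 2.11), Dnajc12 (12.8 and 29.4 CPM, 1.20, 0.74 to 1.64) and Hspa8 (101 and 166 CPM, 0.72, 0.54 to 0.89). Of the 60 inhibitory nuclei, 5 lay in the serotonergic cluster. Without them, Dnajc12 stood at 20.2 CPM (14.3 to 27.8), Hspa12b at 11.7 CPM (7.34 to 17.7) and Hspa8 at 175 CPM (156 to 195). Inhibitory nuclei also held more mitochondrial RNA than glutamatergic ones, 0.349% against 0.103% in hot water bath and 0.679% against 0.373% in SNI with brush. By the class of the cluster, the inhibitory nuclei include those of cluster 9, led by mitochondrial genes, with 20 and 37 nuclei. Whether the mitochondrial share accounts for these class differences was not tested. The 2 lower were Dnajc16 (21.9 and 11.6 CPM) and Dnajc22, which had 36 UMIs in glutamatergic nuclei (3.57 CPM) and 0 in inhibitory ones. A count of 0 there has a 95% interval that reaches 1.72 CPM, and the 95% interval of the log2 ratio of Dnajc22, inhibitory over glutamatergic, lay below -0.98.

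By own UMIs in SNI with brush, 3 of 59 members were at least 1.5-fold higher in inhibitory nuclei and 1 lower, against 9.05% and 6.19% of 14863 genes. Both classes of that library drew heavily on clusters 11 and 1, which are mixed, so the contrast in part splits nuclei of the same clusters. Dnajc12 stood at 13.7 and 21.5 CPM (0.65, 0.18 to 1.13), on the same side as in hot water bath. The others rested on few UMIs, Dnajc9 on 36 and 39 and Hspb8 on 15 and 16. Hspbap1 was the one lower member, at 22.7 and 13.8 CPM (-0.71, -1.22 to -0.24). Hspa12b did not repeat its pattern, at 6.58 and 4.97 CPM (-0.38, -1.30 to 0.44).

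Serotonergic nuclei (at least 10 UMIs of Tph2, the neuronal tryptophan hydroxylase) numbered enough for a description in hot water bath only. Against glutamatergic nuclei of that library, 9 of 59 members were at least 1.5-fold higher and 13 lower, where all 14538 genes gave 14.1% and 26.0%. Dnajc12, a co-chaperone of the aromatic amino acid hydroxylases and thus of Tph2, stood at 60.2 CPM (46.6 to 76.6) in the 26 serotonergic nuclei, above 12.8 CPM in glutamatergic and 29.4 in inhibitory nuclei. It had a UMI in 23 of 26 serotonergic nuclei, and in 11 of 26 (42.3%, 23.4 to 63.1) when each nucleus was thinned to 9000 UMIs. Thinned alike, 68 of all 422 neuronal nuclei (16.1%), these 26 included, had one. In SNI with brush the 3 serotonergic nuclei gave 13 UMIs, 86.0 CPM (45.8 to 147).

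Of the 9 members at least 1.5-fold higher in serotonergic nuclei (15.3%, where all genes gave 14.1%), 5 had an interval above 0. They were Dnajc12, Hsph1 and the 3 given next, and how many of all genes had such an interval was not counted. Hspb1 had 1.39 CPM in glutamatergic and 6.39 in serotonergic nuclei, from 14 and 7 UMIs (2.25, 0.65 to 3.61). Hspb8 had 3.37 and 15.5 CPM (2.22, 1.27 to 3.08), and Hspa12b 5.45 and 21.9 CPM (2.02, 1.25 to 2.72). On the low side stood Hspa5 at 54.5 and 24.6 CPM (-1.12, -1.76 to -0.59), Hspa12a at 93.4 and 42.9 CPM (-1.11, -1.58 to -0.70), Dnajc11, a partner of the complex that shapes mitochondrial cristae, at 51.8 and 31.0 CPM (-0.72, -1.28 to -0.24) and Hsp90b1 at 66.2 and 40.2 CPM (-0.71, -1.20 to -0.28). Of 11 ER members 4 were at least 1.5-fold lower, where 26.0% of all genes were, and for 2 of the 4, Hspa5 and Hsp90b1, the interval lay below 0. Hsph1 stood at 28.5 and 42.9 CPM (0.60, 0.11 to 1.04).

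**Figure D2:**
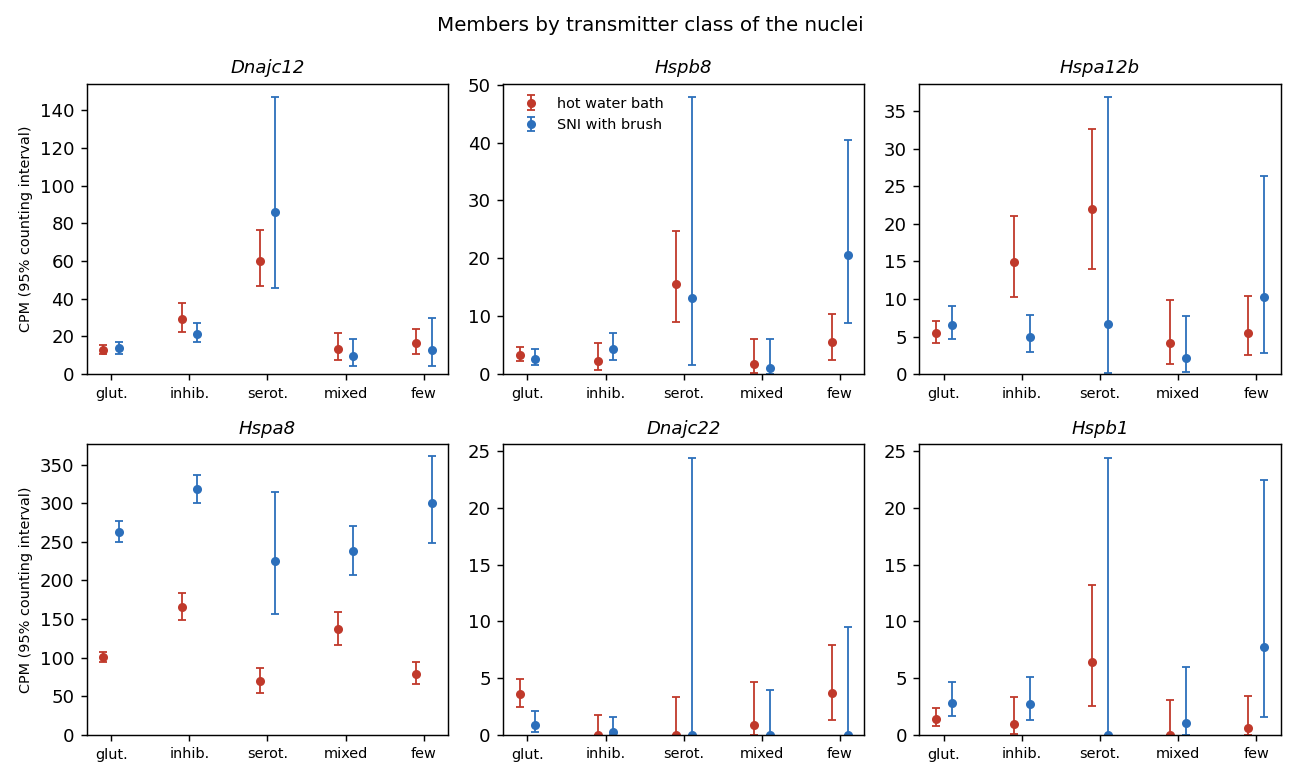
CPM (vertical axes) of 6 members by transmitter class (glut., glutamatergic; inhib., inhibitory; serot., serotonergic; mixed; few, too few transmitter UMIs), with hot water bath in red and SNI with brush in blue and 95% counting intervals as bars. Dnajc12 peaks in serotonergic nuclei of both libraries (60.2 and 86.0 CPM), Hspa12b in serotonergic and inhibitory nuclei of hot water bath, and Hspa8 is higher in SNI with brush in all 5 classes.

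The difference in the abundant cytosolic chaperones moved with the mitochondrial share of the nuclei. In hot water bath, the 402 neuronal nuclei with at most 0.5% mitochondrial UMIs had 89.4 CPM of Hspa8, and the 20 nuclei above 0.5% had 564 CPM. In SNI with brush, the values were 208 CPM in 191 nuclei and 475 CPM in 78 nuclei. Hsp90aa1 gave 124 and 643 CPM in hot water bath and 224 and 514 CPM in SNI with brush, and Hsp90ab1 gave 126 and 523 CPM and 190 and 423 CPM. Dnajc6 gave 414 and 342 CPM and 333 and 334 CPM. Nuclei above 0.5% thus held far more Hspa8 and Hsp90 RNA in both libraries, and SNI with brush had more such nuclei.

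Nuclei were then compared between libraries within 4 strata of mitochondrial share. Up to 0.1%, with 275 and 36 nuclei, Hspa8 stood at 82.2 and 136 CPM (0.73, 0.53 to 0.92). From 0.1 to 0.2%, with 88 and 67 nuclei, it stood at 101 and 198 CPM (0.97, 0.77 to 1.18), and from 0.2 to 0.5%, with 39 and 88 nuclei, at 127 and 268 CPM (1.07, 0.82 to 1.33). Above 0.5%, with 20 and 78 nuclei, it stood at 564 and 475 CPM (-0.25, -0.42 to -0.07). Hspa8 was thus higher in SNI with brush in the 3 lower strata and lower in the highest one.

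Hsp90aa1 followed the same course, with log2 ratios of 0.43, 0.48, 0.70 and -0.32, and so did Hsp90ab1, with 0.18, 0.24, 0.68 and -0.31. The interval of Hsp90ab1 reached below 0 in the lowest stratum (-0.01 to 0.37). Dnaja1 gave 0.42, 0.52, 0.56 and -0.16. Hspe1 differed from these and kept a ratio above 0 in all 4 strata, 0.89, 0.93, 1.19 and 0.78, each with an interval above 0. Dnajc6 was below 0 in all 4, at -0.30, -0.26, -0.47 and -0.04, the last with an interval that holds 0 (-0.25 to 0.19). Averaging over the strata with equal weight was chosen after seeing the data and done in 2 ways. When the CPM of the strata were averaged before the ratio, so that the highest levels, those above 0.5%, weighed most, Hspa8 went from 1.38 to 0.30, Hsp90aa1 from 1.07 to 0.11 and Hsp90ab1 from 0.84 to 0.05. When the 4 log2 ratios were averaged instead, the values were 0.63, 0.32 and 0.20. Without the nuclei above 0.5%, of which hot water bath had 20, they were 1.22, 0.85 and 0.59. Hspe1 stood at 0.94, 0.95 and 1.34 and Dnajc6 at -0.27, -0.27 and -0.31 in the same order. Members at least 1.5-fold higher numbered 4 of 58, 5 of 56, 13 of 56 and 9 of 55 in the 4 strata, against 20.5% to 26.4% of all genes. Whether the mitochondrial share or the RNA it stands for accounts for the ratios was not tested.

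**Figure D3:**
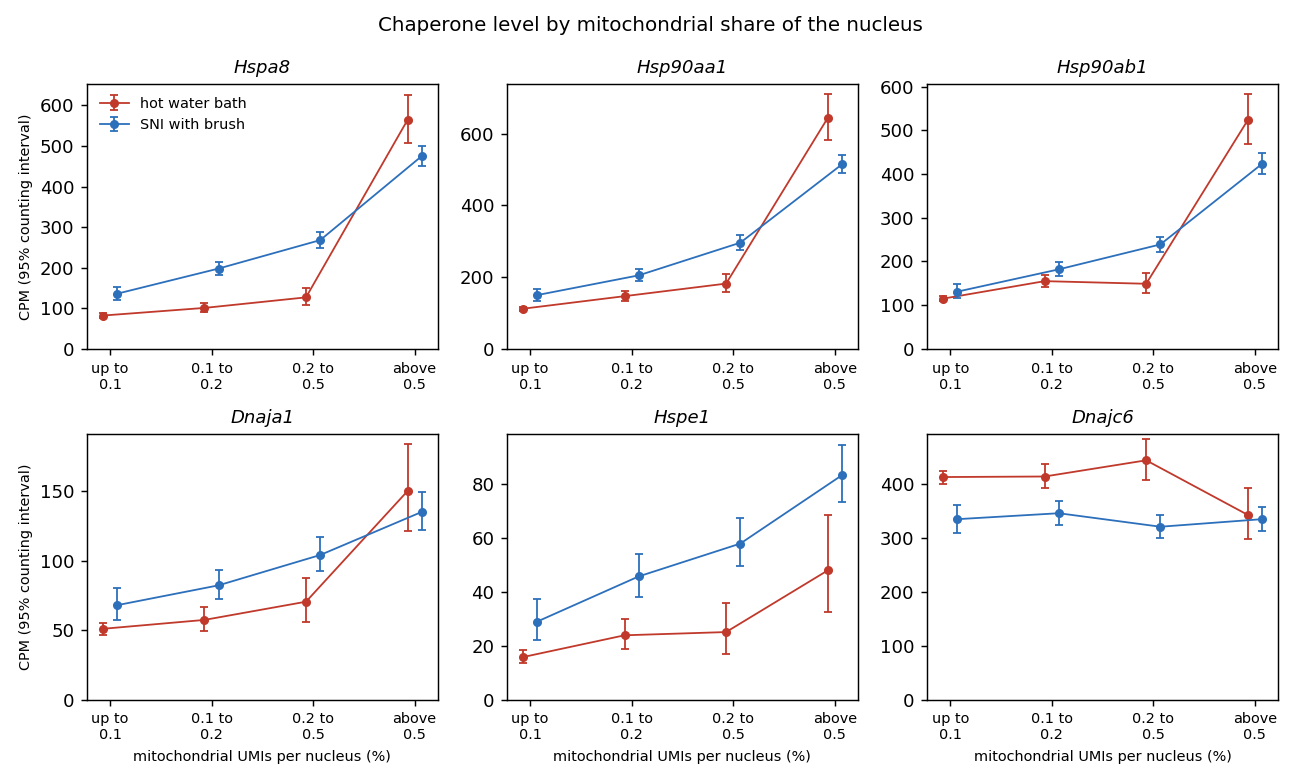
CPM (vertical axes) of 6 members in neuronal nuclei split by their percentage of mitochondrial UMIs (horizontal axes), with hot water bath in red, SNI with brush in blue and 95% counting intervals as bars. Hspa8, Hsp90aa1, Hsp90ab1 and Dnaja1 cross above 0.5%, Hspe1 is higher in SNI with brush in all 4 strata (ratios 0.78 to 1.19), and Dnajc6 does not climb with the share.

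Across single nuclei the same genes went together. Among 422 neuronal nuclei of hot water bath, Spearman's rho between the Hspa8 level and the mitochondrial share was 0.29, and among 269 of SNI with brush it was 0.65, whereas Pearson's r was 0.58 and 0.51, so the order of the libraries depends on the measure. Spearman's rho was 0.37 and 0.64 for Hsp90aa1 (Pearson's r 0.54 and 0.58), 0.30 and 0.69 for Hsp90ab1 (0.50 and 0.59), 0.17 and 0.27 for Hspe1 (0.28 and 0.22) and -0.02 and -0.07 for Dnajc6 (-0.15 and 0.09). Hspa8 and Hsp90aa1 gave a rho of 0.40 and 0.62 with each other (r 0.55 and 0.62). Hspd1 and Hspe1, whose proteins act as 1 machine, gave a rho of 0.16 and 0.08, with few UMIs of either per nucleus. The nuclei of a library share its depth and its free RNA, so these are descriptions and no p is given. Thinned to 9000 UMIs, Hspa8 was seen in 57.1% of nuclei in hot water bath (52.2 to 61.9) and 86.2% in SNI with brush (81.5 to 90.1), and Hspe1 in 15.9% and 42.0%. Unthinned, Hspa8 was seen in 395 of 422 and in 269 of 269 nuclei.

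The ratio also ran with gene length. Over the 62 members, Spearman's rho between gene length and log2 ratio was -0.45, and over 17439 genes it was -0.31, as a description over genes that share both libraries. All genes were divided by length into 5 groups of equal size. Of the 12 members in the shortest group (up to 7.45 kb) 5 were at least 1.5-fold higher, where 53.2% of all genes of that group were, and of 10 in the next group 4, where 38.8% were. In the 3 groups of longer genes, 1 of 20, 0 of 14 and 1 of 6 members passed, where 27.2%, 17.2% and 15.3% of all genes did. Hspe1 (3.18 kb) and Hsp90ab1 (5.5 kb) lie in the shortest group, where the median gene had 0.64. Hspa8 (9.1 kb) and Hsp90aa1 (12.1 kb) lie in the next, where it had 0.42. Dnajc6 (146 kb) and Dnajc1 (197 kb) lie in the longest, where it had -0.05. Read against the median gene of their own length, Hspe1 (1.54), Hspa8 (1.38), Hsp90aa1 (1.07) and Hsp90ab1 (0.84) were higher and Dnajc6 (-0.30) lower. Among these, Hsp90ab1 and Dnajc6 lay nearest to the median of their group. The spread of the genes within a length group was not used, so this reading sets no member apart.

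**Figure D4:**
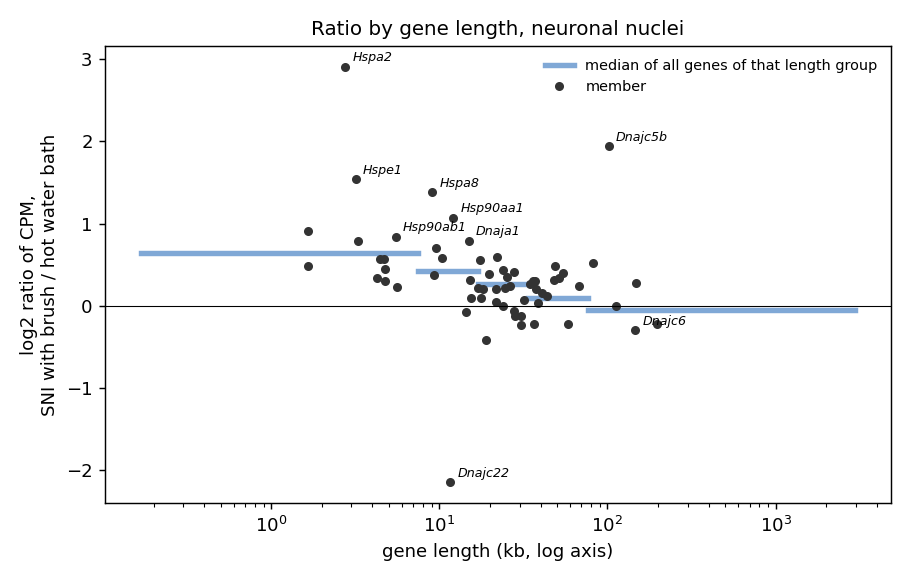
Log2 ratio of CPM in SNI with brush over hot water bath (vertical axis) against gene length in kb (log axis) for the 62 members, with the median of all genes in each of 5 length groups as a blue bar. The bars descend from 0.64 to -0.05, and Hspe1, Hspa8, Hsp90aa1 and, by less, Hsp90ab1 stand above the bar of their own group.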

How the data were processed

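Nuclear RNA of sorted nuclei was measured with the 10x Chromium 3′ kit, per the labels' protocols. The authors deposited 1 table per library, whose values are whole-number UMI counts of each gene in each nucleus, without normalization. Cell Ranger 5.0, Seurat (no version given) and the mm10 genome are named in the submitters' processing notes. Only 425 of 723 and 288 of 850 listed barcodes have a column, and neither the filter behind this nor the treatment of intronic reads is stated.

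Nuclei needed at least 500 genes and at most 5% mitochondrial UMIs, which removed none, and doublets were called with Scrublet as scanpy runs it. Leiden clustering used 2000 variable genes centred within library, 30 components, 15 neighbours and resolution 1.0 (scanpy 1.11.5, anndata 0.12.19, igraph 0.11.9). Clusters in which 3 or more of the 8 neuron markers had 0.5 times their overall level or more counted as neuronal. A nucleus was serotonergic with at least 10 Tph2 UMIs. Otherwise, with at least 3 transmitter UMIs, it was glutamatergic where at least 75% came from Slc17a6, Slc17a7 and Slc17a8 and inhibitory where at most 25% did.

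Levels are summed counts scaled to CPM, with exact Poisson intervals. A log2 ratio compares 2 scaled sums after adding 0.5 UMI to each, with an exact conditional interval, and shares carry Clopper-Pearson intervals (scipy 1.17.1, with pandas 2.3.3, numpy 2.4.6 and python 3.11.15). The script was tested on simulated data for the neuron comparison: over 17480 genes with 200 changed, ratios of 2 and 1 came out at 2.00 and 1.00, and 95.7% of intervals of unchanged genes held 0. Gene positions and lengths are from GENCODE vM21, where all 74 identifiers were found.

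Members and lists were chosen with earlier results of these data known. All Hspa, Hspb, Hspd, Hspe, Hsph and Hsp90 members could be named, and of the Dnaj members those with most UMIs, the highest and lowest ratios among those with at least 100 UMIs and those with vesicle or stress roles. Of the lists outside the families, the 3 highest and 2 lowest with at least 100 UMIs could be named. Dnajc22, Dnajc9 and Hspb8 by class were chosen after their values were seen. The alternatives were another scaling, other minimum counts and folds, other sets or weights of nuclei, other class rules and strata of mitochondrial share.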

Additional observations from a re-analysis of the deposited data

Results flagged for a closer look

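The cluster of 17 non-neuronal nuclei in SNI with brush, left out of the comparisons above and led by the liver-type genes Cyp3a25, Cps1 and Mug1, showed 3 members far above their level in the neuronal nuclei of either library. Dnajc12 stood at 859 CPM (779 to 944, from 424 UMIs), against 18.6 and 17.0 CPM in the neurons of hot water bath and SNI with brush. Dnajc22 stood at 74.9 CPM (52.8 to 103, from 37 UMIs), against 2.66 and 0.56 CPM. Hspb8 stood at 72.9 CPM (51.1 to 101, from 36 UMIs), against 4.15 and 3.92 CPM. Dnajc6 was low in the same nuclei, at 50.6 CPM. No nucleus of hot water bath fell in this cluster.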

How the results depend on the processing

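In all neuronal nuclei, the count of members at least 1.5-fold higher in SNI with brush was 11. It was 7 with median-of-ratios size factors, 7 in nuclei with at most 0.5% mitochondrial UMIs, 7 with a minimum of 100 UMIs, 5 at 2-fold and 6 when 4 strata of mitochondrial share were averaged by CPM and 6 when their log2 ratios were averaged, both alternatives chosen after seeing the data. The count lower was 1. It was 2 with size factors, 0 with all deposited nuclei and 0 with a minimum of 100 UMIs. Dnajc22, at -2.15, turned to 0.53 with all deposited nuclei, which add the non-neuronal cluster that holds 37 of its UMIs. Hspb6, at 0.79, turned to -0.02 when the log2 ratios of the strata were averaged. The count in glutamatergic nuclei was 8, with 3 at 2-fold and 14 among nuclei with UMIs of 1 transmitter kind only. The count in inhibitory nuclei was 15, with 6 under size factors, 8 with a minimum of 100 UMIs and 3 at 2-fold. The count higher in inhibitory than glutamatergic nuclei of hot water bath was 3, with 13 by the class of the cluster and 7 with 1 kind only. That of SNI with brush was 3, with 7 when nuclei weighed equally, 1 with a minimum of 100 UMIs, 0 at 2-fold and 14 by the class of the cluster. Where not stated, the cause was not tested. Under the main setting, 30.4% of all genes were higher and 8.43% lower in neuronal nuclei. The shares higher were 26.8% in glutamatergic and 30.9% in inhibitory nuclei. For inhibitory over glutamatergic nuclei they were 11.1% in hot water bath and 9.05% in SNI with brush. The share of all genes can move too: among genes with a promoter window, 3884 were higher by total UMIs and 2724 with size factors. The shares of all genes under the alternatives are not given beside these counts. A changed count can therefore not be read as particular to the members. Of the 62 ratios, 27 stayed inside their counting interval under size factors, 39 and 38 under the averaged strata, 55 in nuclei with at most 0.5%, and 53 to 62 under the other alternatives. No paired analysis was possible because each treatment has 1 library. The 6 members with under 100 UMIs have ratios with intervals over 1 log2 unit wide.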
